A study of Mus musculus with 12 samples.

Results

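Serpins are a superfamily of proteins named for serine protease inhibition. Their genes were read here in mammary epithelial cells sorted into a CD24 low and a CD24 high fraction. The mice had Wnt4 either intact or conditionally deleted. The members were all gene symbols made of Serpin, a clade letter from a to i, a number and at most one further letter, so that the choice rested on the name and on no measured value. This gave 47 of the 19938 genes that a single probeset symbol named, each read by 1 probeset: 14 of clade A, 24 of clade B, 2 of clade F, 2 of clade I and 1 each of clades C, D, E, G and H. A further 5 serpin probesets that the annotation shares among Serpina1a to Serpina1e or among Serpinb9d to Serpinb9g were left out.

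Wnt4-deleted females carried MMTV::Cre+.Wnt4fl/fl.mT/mG and WT controls carried MMTV::Cre+.Wnt4wt/wt.mT/mG, so that both genotypes held the Cre transgene, driven by the mouse mammary tumor virus promoter, and the mT/mG reporter, which turns a cell from red to green where Cre has acted. The females were 10 to 14 weeks old. Lineage-depleted, GFP+ cells were divided by CD24 into a low fraction, which the labels call myoepithelial, and a high fraction, which they call luminal. Each of the 4 groups had 3 arrays, numbered in their titles: WT CD24 low 1, 9 and 13, Wnt4-deleted CD24 low 3, 11 and 15, WT CD24 high 2, 10 and 14, and Wnt4-deleted CD24 high 4, 12 and 16. According to the design text the cells came from independent experiments on mammary glands, while the treatment notes name grafts. Neither says which arrays shared an experiment or how many animals went into 1 array, so that each p-value measures the spread among arrays, whatever its source. Values are log2 RMA values, in which a difference of 1 is a 2-fold difference in signal. They served to compare arrays for 1 gene and not genes with each other, and the number of arrays limited their precision.

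An inhibitory serpin offers a protease a bait loop, and once the protease cuts it the serpin changes shape and traps the enzyme in an inactive complex, which receptors such as Lrp1 then clear. Clade A and clade C to G members are mostly secreted and act on coagulation, complement, fibrinolysis and inflammation. Clade B members lack a classical secretion signal and mostly protect cells from proteases in their own cytoplasm. Some serpins inhibit nothing: Serpinh1 is a collagen chaperone of the endoplasmic reticulum, Serpinf1 a secreted neurotrophic and anti-angiogenic factor, and Serpinb5, maspin, is best known from normal mammary epithelium.

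Promoter windows, which run from 250 bases before to 50 bases after an annotated start, were found for 41 of the 47 members in the RefSeq table of build GRCm38.p6, 49 windows in all. Shown are Serpinb6b and Serpinb9, neighbours on chromosome 13 that were both lower in the CD24 high fraction, and the extracellular matrix related Serpinf1 and Serpinh1, which were lower there too. Capitals mark CCAAT and the GC box GGGCGG on either strand, the only searched motifs found in these 4 windows. Serpinb6b lies at chr13:32965011-32965310 on the plus strand, Serpinb9 at chr13:33004291-33004590 on the plus strand, Serpinf1 at chr11:75422574-75422873 on the minus strand and Serpinh1 at chr7:99353190-99353489 on the minus strand.
Serpinb6b: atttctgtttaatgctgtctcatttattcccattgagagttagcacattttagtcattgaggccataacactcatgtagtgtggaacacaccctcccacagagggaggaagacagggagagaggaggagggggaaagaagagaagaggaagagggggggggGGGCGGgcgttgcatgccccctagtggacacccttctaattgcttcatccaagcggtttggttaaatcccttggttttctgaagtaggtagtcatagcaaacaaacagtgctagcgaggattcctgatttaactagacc
Serpinb9: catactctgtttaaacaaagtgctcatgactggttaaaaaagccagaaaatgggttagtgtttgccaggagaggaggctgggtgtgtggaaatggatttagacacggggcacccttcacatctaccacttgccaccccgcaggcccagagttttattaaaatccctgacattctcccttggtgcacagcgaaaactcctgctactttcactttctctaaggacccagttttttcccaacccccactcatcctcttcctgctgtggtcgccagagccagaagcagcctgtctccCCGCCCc
Serpinf1: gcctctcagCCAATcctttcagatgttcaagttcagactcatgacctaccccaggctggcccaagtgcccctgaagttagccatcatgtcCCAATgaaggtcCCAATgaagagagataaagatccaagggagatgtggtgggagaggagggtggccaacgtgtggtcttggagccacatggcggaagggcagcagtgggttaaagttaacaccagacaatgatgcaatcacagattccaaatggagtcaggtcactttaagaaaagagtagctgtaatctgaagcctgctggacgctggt
Serpinh1: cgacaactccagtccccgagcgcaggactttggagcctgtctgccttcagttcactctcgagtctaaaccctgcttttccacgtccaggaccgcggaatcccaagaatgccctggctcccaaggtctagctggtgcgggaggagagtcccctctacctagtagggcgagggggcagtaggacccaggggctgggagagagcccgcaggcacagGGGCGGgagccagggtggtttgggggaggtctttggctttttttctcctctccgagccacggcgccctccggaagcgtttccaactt

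The neighbours Serpinb6b and Serpinb9 each held 1 GC box, but not at the same place: it began at position -89 from the annotated start in Serpinb6b and at position 44, counted from 1 at the start base and read on the other strand, in Serpinb9. Serpinf1 held 3 copies of CCAAT and no GC box, and Serpinh1 held 1 GC box, at position -37. Over all 49 windows of members, the GC box was in 14.3% against 35.7% of the 32851 windows in the table, CCAAT in 30.6% against 37.4%, and the TATA sequence TATAAA in 30.6% against 13.6%. The AP-1 motif TGANTCA was in 20.4% against 7.81%, the interferon motif GAS, TTCNNNGAA, in 14.3% against 8.3%, the heat shock element GAANNTTC in 10.2% against 7.86%, the TCF motif ATCAAAG in 6.12% against 3.73% and the CArG box in 2.04% against 1.63%. Both strands were searched for each motif and overlaps between motifs were allowed. Windows of 1 gene could overlap, as for Serpinb2, Serpina11 and Serpina7, so that the same site could count in more than 1 window. Among the 8 windows of members that passed the test between the fractions, 4 held a GC box and 3 held CCAAT. The GAS motif and the heat shock element were in 1 each, and none held the TATA, AP-1, TCF or CArG motif. These were not 1 window per gene: Serping1 had none, and Serpinb6a had more than 1, counted for both the GC box and CCAAT. These shares describe letters in the windows and not binding.

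Of the whole series, the following bears on the serpins. All 14 myoepithelial markers were lower and all 16 luminal markers higher in the CD24 high fraction of both genotypes. CD24 low arrays also held signal of other cells: the mean of 10 endothelial markers ran from 6.55 to 9.27 there against 5.18 to 6.45 in the CD24 high arrays, and 5 of the 10 in WT and 6 in Wnt4-deleted cells were lower in the CD24 high fraction. The mean of 12 fibroblast markers was 8.56 in array 9 and 8.11 in array 11 against 5.93 to 6.71 in the other CD24 low arrays, and the mean of 8 skeletal muscle markers was 7.56 in array 1 and 8.63 in array 3 against at most 5.77 elsewhere. Immune markers, 10 in number, averaged 5.01 to 6.38 in the CD24 low and 4.61 to 4.97 in the CD24 high arrays. Wnt4 itself averaged 7.65 in WT and 6.45 in Wnt4-deleted CD24 high cells, a difference of -1.20 (SE 0.19, adjusted p = 0.416), with no overlap between the arrays. In the CD24 low fraction it averaged 6.53 and 6.38.

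Between the fractions of WT mice, 7 serpin genes passed the test and all 7 were lower in the CD24 high cells. They were Serping1, Serpinf1, Serpinb6b, Serpina3n, Serpinh1, Serpinb9 and Serpini1, with differences from -4.15 to -0.60, or 17.7-fold to 1.51-fold. None was higher. The 7 were 14.9% of the serpin genes, near the 16.1% of all genes that passed. Of all genes, 8.21% passed on the lower side. The median difference over the 47 serpin genes was -0.02 against 0.02 over all genes, and 36 of the 47 intervals lay within a 2-fold difference in either direction. Groups did not overlap for 17 members, or 36.2%, against 32.8% of all genes. In bulk samples such as these, fewer cells of a type and less RNA per cell cannot be told apart.

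The Wnt4-deleted mice gave the same 7 genes and Serpinb6a, again all lower in the CD24 high cells. These 8 were 17% of the members, against 16.4% of all genes that passed and 8.22% that were lower. Their differences ran from -3.85 for Serping1 to -0.83 for Serpini1, the median over all 47 was -0.12 against 0.01 over all genes, and groups did not overlap for 15 members, or 31.9%, against 29.3% of all genes. The comparisons in the 2 genotypes used different arrays but shared 1 estimate of the spread.

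**Figure D1:**
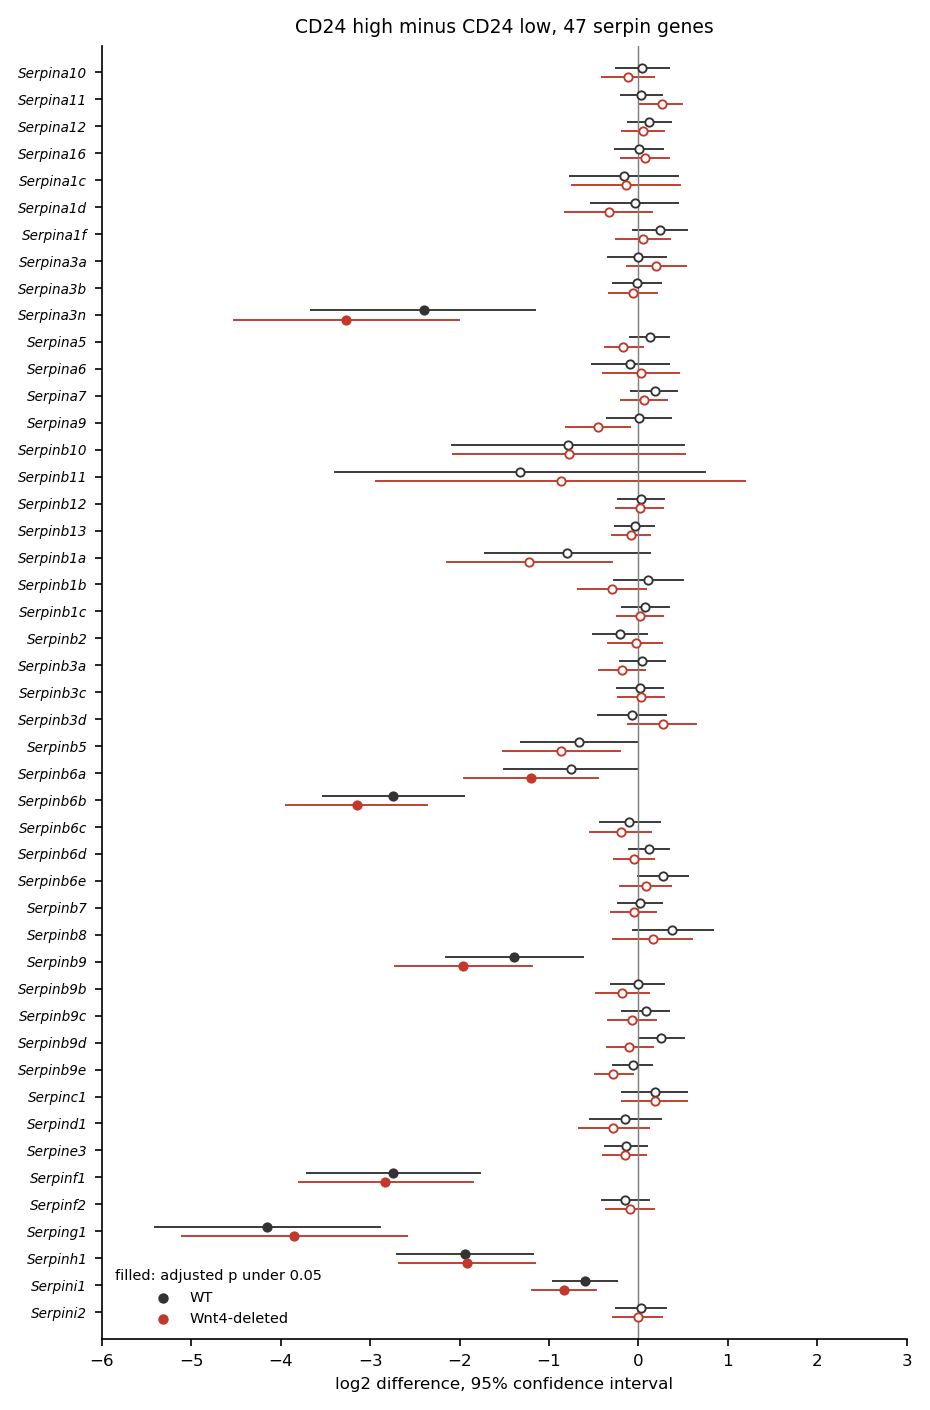
Log2 difference between CD24 high and CD24 low cells for each of the 47 serpin genes, in WT (dark) and Wnt4-deleted (red) mice, with 95% confidence intervals from limma; filled points passed an adjusted p of 0.05. The 7 filled points in WT and 8 in Wnt4-deleted mice all lie below 0, and most other members lie close to it.

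Serping1, the C1 inhibitor that stops the complement proteases C1r and C1s and plasma kallikrein, had the largest difference of the family. It read 8.57, 10.75 and 9.03 in WT CD24 low arrays 1, 9 and 13 and 4.65, 5.92 and 5.35 in WT CD24 high arrays 2, 10 and 14. In Wnt4-deleted mice it read 8.51, 10.14 and 9.95 in the low and 5.51, 6.16 and 5.39 in the high fraction. Every CD24 low array lay above every CD24 high array, by more than 2 log2 units. The difference was -4.15 (SE 0.58, 95% interval -5.42 to -2.88, n = 3 against 3, limma adjusted p = 0.000524) in WT and -3.85 (SE 0.58, limma adjusted p = 0.000839) in Wnt4-deleted cells. Its highest CD24 low value was in array 9 and the next in array 11, the arrays with the most fibroblast signal. The mean of 7 pericyte markers was also highest there, at 6.93 and 7.36 against 5.71 to 6.24 in the other CD24 low arrays. So was that of the immune markers, at 6.38 and 6.13 against 5.01 to 6.02. Without arrays 9 and 11 the differences were -3.5 and -3.55, both still past the threshold. The part of endothelial signal, which stood at 6.55 to 9.27 in all CD24 low arrays, was not tested, nor was that of the other cell types.

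Serpinf1 encodes pigment epithelium-derived factor, the secreted serpin without inhibitory activity. Its WT values were 8.31, 10.51 and 8.79 in CD24 low and 6.71, 6.33 and 6.36 in CD24 high arrays. The Wnt4-deleted values were 9.13, 9.59 and 8.87 in the low and 6.14, 6.67 and 6.29 in the high fraction. Again the fractions did not overlap, while all CD24 high arrays lay between 6.14 and 6.71. The difference was -2.74 (SE 0.45, limma adjusted p = 0.00153) in WT and -2.83 (SE 0.45, limma adjusted p = 0.0012) in Wnt4-deleted cells, and leaving out arrays 9 and 11, where Serpinf1 was also highest, gave -2.09 and -2.63, past the threshold in both. Taken within arrays 1 to 4, 9 to 12 and 13 to 16 separately, the WT difference ran from -4.18 to -1.60 and the Wnt4-deleted difference from -2.99 to -2.58.

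Serpinh1, also called Hsp47, holds procollagen in its folded state on the way out of the endoplasmic reticulum. It read 9.94, 9.26 and 9.52 in WT CD24 low and 7.42, 7.95 and 7.54 in WT CD24 high cells. Corresponding values in Wnt4-deleted cells were 9.89, 9.05 and 9.05 in the low and 8.24, 6.97 and 7.02 in the high fraction, where array 4 stood above the other two. The lowest CD24 low value, 9.05, lay above the highest CD24 high one, 8.24, and unlike Serping1 and Serpinf1 it was not higher in arrays 9 and 11, which read 9.26 and 9.05. The difference was -1.94 (SE 0.35, limma adjusted p = 0.00292) in WT and -1.92 (SE 0.35, limma adjusted p = 0.003) in Wnt4-deleted cells. The part of other cell types was not tested.

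The genes that work with Serpinh1 on procollagen were counted beside it. Of 20 measured prolyl and lysyl hydroxylases, collagen export factors and collagen chains, 10 were lower in WT CD24 high cells and 8 in Wnt4-deleted ones, and none was higher in either. Of all genes, 8.21% in WT and 8.22% in Wnt4-deleted cells passed on the lower side. The largest WT differences were those of P3h2, a prolyl 3-hydroxylase active on basement membrane collagen, at -2.53, Plod2, a lysyl hydroxylase, at -2.43, and the basement membrane chains Col4a1 at -2.37 and Col4a2 at -2.20. The list's median was -0.97 in WT and -0.91 in Wnt4-deleted cells. Col1a1, a fibrillar chain that is also a fibroblast marker, differed by -0.94 in WT without passing the test (adjusted p = 0.307) and was highest in arrays 9 and 11, at 8.49 and 8.36 against at most 6.90 in the other CD24 low arrays.

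**Figure D2:**
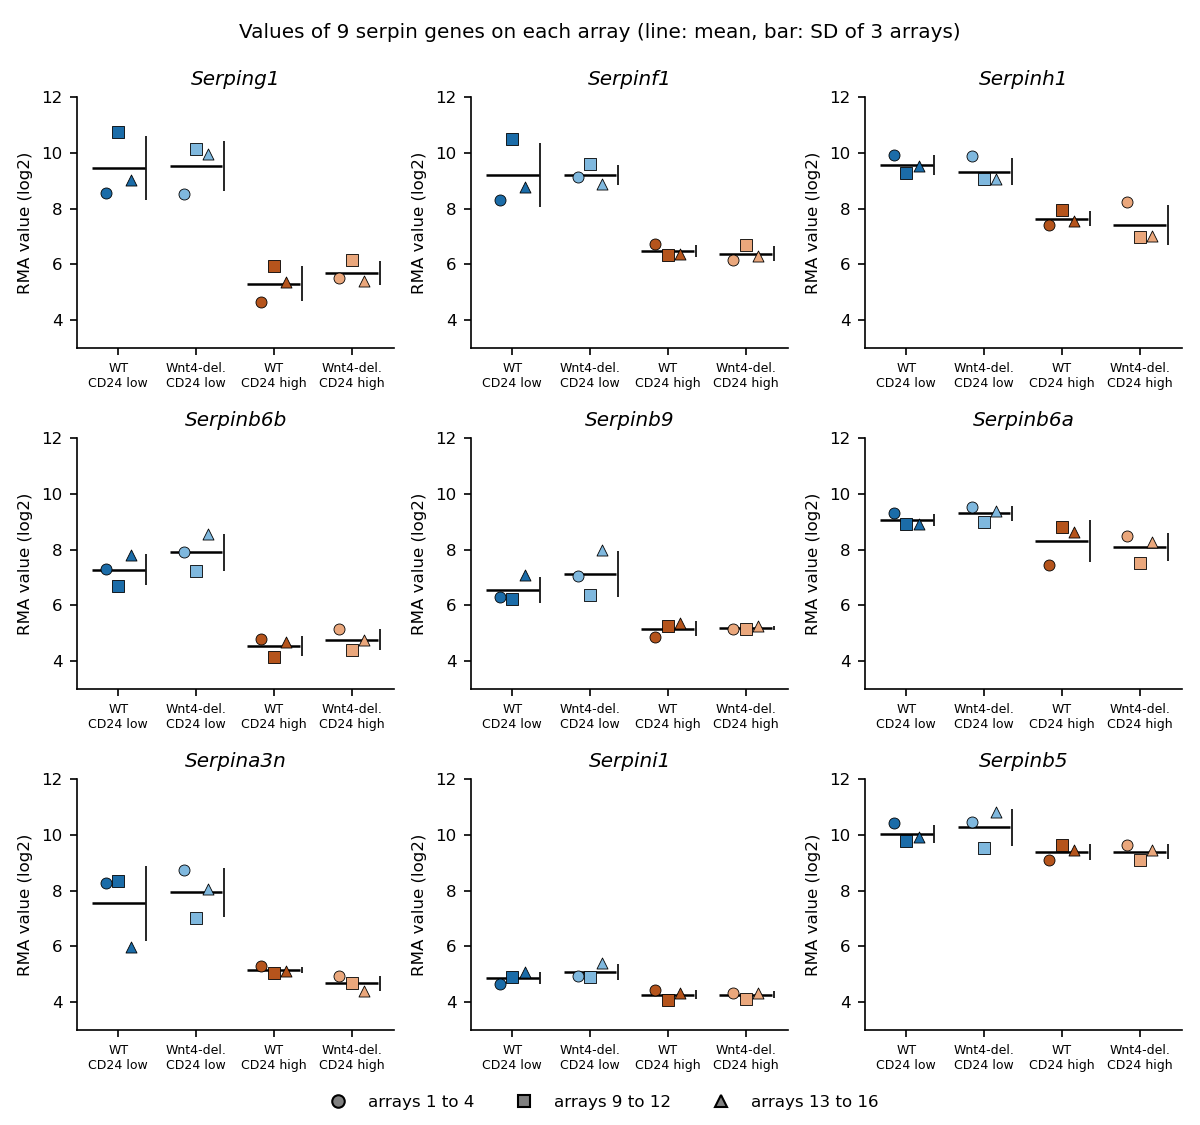
Log2 RMA value of 9 serpin genes on each array, grouped by fraction and genotype, with the mean as a line and the SD of 3 arrays as a bar; the shape gives the array numbers. The fractions lie apart for Serping1, Serpinf1, Serpinh1 and Serpinb6b, closer for Serpinb9, Serpini1 and Serpinb6a, and Serpinb5 is high in every group.

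Clade B, the intracellular serpins, split into a few genes with clear signal and many without. Serpinb6b, a mouse relative of the cathepsin G inhibitor SERPINB6, read 7.29, 6.70 and 7.82 in WT CD24 low and 4.77, 4.13 and 4.68 in WT CD24 high arrays. Its Wnt4-deleted values were 7.91, 7.24 and 8.57 in the low and 5.15, 4.37 and 4.75 in the high fraction. The lowest CD24 low array, 6.70, was well above the highest CD24 high one, 5.15. The difference was -2.74 (SE 0.36, limma adjusted p = 0.000366) in WT and -3.15 (SE 0.36, limma adjusted p = 0.000135) in Wnt4-deleted cells, the smallest adjusted p of the family in both genotypes. Within arrays 1 to 4, 9 to 12 and 13 to 16 it ran from -3.14 to -2.51 in WT and from -3.82 to -2.76 in Wnt4-deleted cells. Array 9, with the most fibroblast signal, held its lowest CD24 low value. Endothelial and immune marker means were also higher in the CD24 low arrays. The part of these cell types in the difference was not tested.

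Serpinb9, the cytoplasmic inhibitor of granzyme B, is the next serpin gene after Serpinb6b on chromosome 13. It read 6.31, 6.22 and 7.07 in WT CD24 low and 4.84, 5.25 and 5.35 in WT CD24 high arrays. The Wnt4-deleted arrays read 7.04, 6.36 and 7.99 in the low and 5.13, 5.13 and 5.26 in the high fraction. As for Serpinb6b, the highest CD24 low value of each genotype was in array 13 or array 15. The part of endothelial and immune signal, higher in the CD24 low arrays, was not tested. The difference was -1.39 (SE 0.35, limma adjusted p = 0.02) in WT and -1.96 (SE 0.35, limma adjusted p = 0.00279) in Wnt4-deleted cells. In WT the call was lost without array 2 (adjusted p = 0.0691) or array 13 (adjusted p = 0.0876) and without arrays 1 to 4 (adjusted p = 0.115) or 9 to 12 (adjusted p = 0.0562).

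Serpinb6a, the closer mouse counterpart of SERPINB6 at the far end of the same chromosome 13 row, differed less. It read 9.31, 8.92 and 8.92 in WT CD24 low and 7.44, 8.81 and 8.64 in WT CD24 high arrays, a difference of -0.75 (SE 0.35, adjusted p = 0.197) that did not pass. In Wnt4-deleted cells it read 9.53, 8.99 and 9.38 in the low and 8.48, 7.53 and 8.28 in the high fraction, with a difference of -1.20 (SE 0.35, limma adjusted p = 0.0365). The fractions did not overlap in either genotype, but WT CD24 high arrays 10 and 14, at 8.81 and 8.64, came close to the CD24 low value of 8.92. This call was lost in 11 of 26 alternatives, with an adjusted p of up to 0.241, among them the leaving out of array 3 (0.0872), 9 (0.0515), 12 (0.129), 13 (0.0519), 15 (0.0919) or 16 (0.0729).

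Of the 17 serpin genes and pseudogenes in this row on chromosome 13, 13 were members. Serpinb6b and Serpinb9, in places 4 and 5 of the row, passed in both genotypes. Serpinb6a, the last, passed in Wnt4-deleted cells and not in WT, and the test of that difference gave 0.45 (SE 0.49, adjusted p = 1). The members between them, from Serpinb9b to Serpinb6c, were all dim. No member passed among the 12 on chromosome 1, and 1 of 13 on chromosome 12, Serpina3n, which is the last of the 28 serpin genes and pseudogenes there. With so few genes and a background of 16.1% and 16.4%, nothing was read from these counts by chromosome.

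Serpinb5, maspin, had high signal in every group. It read 10.42, 9.79 and 9.92 in WT CD24 low and 9.08, 9.62 and 9.47 in WT CD24 high arrays. Wnt4-deleted arrays read 10.45, 9.53 and 10.82 in the low and 9.63, 9.11 and 9.47 in the high fraction. The WT fractions were apart by a narrow margin, 9.79 against 9.62, and the Wnt4-deleted ones overlapped. Its difference was -0.66 (SE 0.30, 95% interval -1.32 to 0.01, adjusted p = 0.199) in WT and -0.87 (SE 0.30, 95% interval -1.53 to -0.20, adjusted p = 0.0799) in Wnt4-deleted cells, so that it did not pass in either.

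Serpinb1a, which inhibits neutrophil elastase and cathepsin G, did not pass either. CD24 low cells read 4.28, 4.91 and 5.98 in WT and 4.40, 5.22 and 6.01 in Wnt4-deleted mice. CD24 high cells read 4.32, 4.17 and 4.29 in WT and 3.98, 4.21 and 3.79 in Wnt4-deleted mice. Arrays 1 and 3 were near the level of the CD24 high fraction and arrays 13 and 15 were the highest. The difference was -0.80 (SE 0.42, adjusted p = 0.275) in WT and -1.22 (SE 0.42, adjusted p = 0.0779) in Wnt4-deleted cells. Endothelial markers were likewise low in arrays 1 and 3, at 6.65 and 6.55, and stood at 8.88 and 8.94 in arrays 13 and 15, though their highest mean, 9.27, was in array 11. Their part was not tested.

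Serpina3n, a mouse relative of alpha-1-antichymotrypsin that inhibits granzyme B and elastase and rises in inflammation, was the only clade A member that passed. It read 8.28, 8.35 and 5.98 in WT CD24 low and 5.28, 5.04 and 5.09 in WT CD24 high arrays. In Wnt4-deleted mice it read 8.74, 7.0 and 8.05 in the low and 4.93, 4.68 and 4.38 in the high fraction. The CD24 low arrays were the ones that varied, and array 13 stood nearer to the CD24 high arrays than to its own group. The difference was -2.40 (SE 0.58, limma adjusted p = 0.0146) in WT and -3.27 (SE 0.58, limma adjusted p = 0.00242) in Wnt4-deleted cells. Within the 3 sets of array numbers the WT difference ran from -3.31 to -0.89, and the WT call was lost without array 1 (adjusted p = 0.0598) or array 9 (adjusted p = 0.0643) and without arrays 1 to 4 (adjusted p = 0.0823) or 9 to 12 (adjusted p = 0.166).

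Serpini1, neuroserpin, inhibits tissue plasminogen activator, the product of Plat, and is best known from the nervous system. Its signal was low: 4.63, 4.88 and 5.07 in WT CD24 low and 4.42, 4.08 and 4.30 in WT CD24 high arrays. In Wnt4-deleted mice it read 4.94, 4.88 and 5.40 in the low and 4.31, 4.10 and 4.32 in the high fraction. The fractions did not overlap, although in WT array 1, at 4.63, was not far above array 2, at 4.42. The difference was -0.60 (SE 0.17, limma adjusted p = 0.0326) in WT and -0.83 (SE 0.17, limma adjusted p = 0.00579) in Wnt4-deleted cells. The WT call was lost in 7 of 25 alternatives, among them the leaving out of array 9 (0.0911), 10 (0.125), 13 (0.132) or 14 (0.0764).

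The other 38 dim members did not pass in either genotype. A member was called dim where its mean lay below the median of all genes in each of the 4 groups, 5.97 to 6.06. This held for 39 of the 47, Serpini1 included, against 44.4% of all genes. The 13 dim clade A members had values between 2.49 and 4.92 on all arrays: the alpha-1-antitrypsin genes Serpina1c, Serpina1d and Serpina1f, Serpina3a and Serpina3b, the protein C inhibitor Serpina5, the hormone carriers Serpina6 for corticosteroids and Serpina7 for thyroxine, the adipokine vaspin Serpina12, the factor Xa inhibitor Serpina10, and Serpina9, Serpina11 and Serpina16. In clade B, 20 were dim, with values from 2.07 to 6.26. Antithrombin Serpinc1, at 4.51 to 5.24, heparin cofactor Serpind1, at 5.08 to 5.87, Serpine3, at 5.41 to 5.84, alpha-2-antiplasmin Serpinf2, at 4.77 to 5.29, and Serpini2, at 2.33 to 2.77, varied by less than 1 log2 unit over all 12 arrays. A low signal on an array does not show that a gene is silent, and probesets of close relatives such as Serpinb9d and Serpinb9e, or Serpina1c and Serpina1d, may bind each other's transcripts.

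Within the dim members, Serpinb10 and Serpinb11, clade B genes on chromosome 1, were raised in a single pair of arrays. Serpinb10, bomapin, known from blood cell precursors, read 5.03 in WT CD24 low array 1 and 5.04 in Wnt4-deleted CD24 low array 3, against 2.72 to 3.05 on the other 10. Serpinb11 read 6.23 and 6.26 in the same arrays against 2.71 to 3.64 on the others. Their differences between fractions, -0.79 (SE 0.60) and -1.32 (SE 0.94) in WT, did not pass (adjusted p = 0.48 and 0.451). Arrays 1 and 3 were also those with raised skeletal muscle markers, whose mean was 7.56 and 8.63 there. Lists of epidermal keratinocyte and hair follicle genes were drawn up after these values were seen. The former averaged 4.84 and 4.72 in arrays 1 and 3 against 4.56 to 5.08 on the others, and the latter 5.06 and 4.83 against 4.81 to 5.05. Only 9 of the 12 keratinocyte genes were measured and 7 of these were dim, as were all 10 hair follicle genes. Nothing was read from these means, and the part of skin cells was not tested. The part of muscle signal was not tested, and Serpinb2, Serpinb7, Serpinb8, Serpinb12, Serpinb13 and the Serpinb3 genes of the same chromosome did not share the pattern, the widest range of them in CD24 low arrays being that of Serpinb8, from 5.33 to 6.10.

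**Figure D3:**
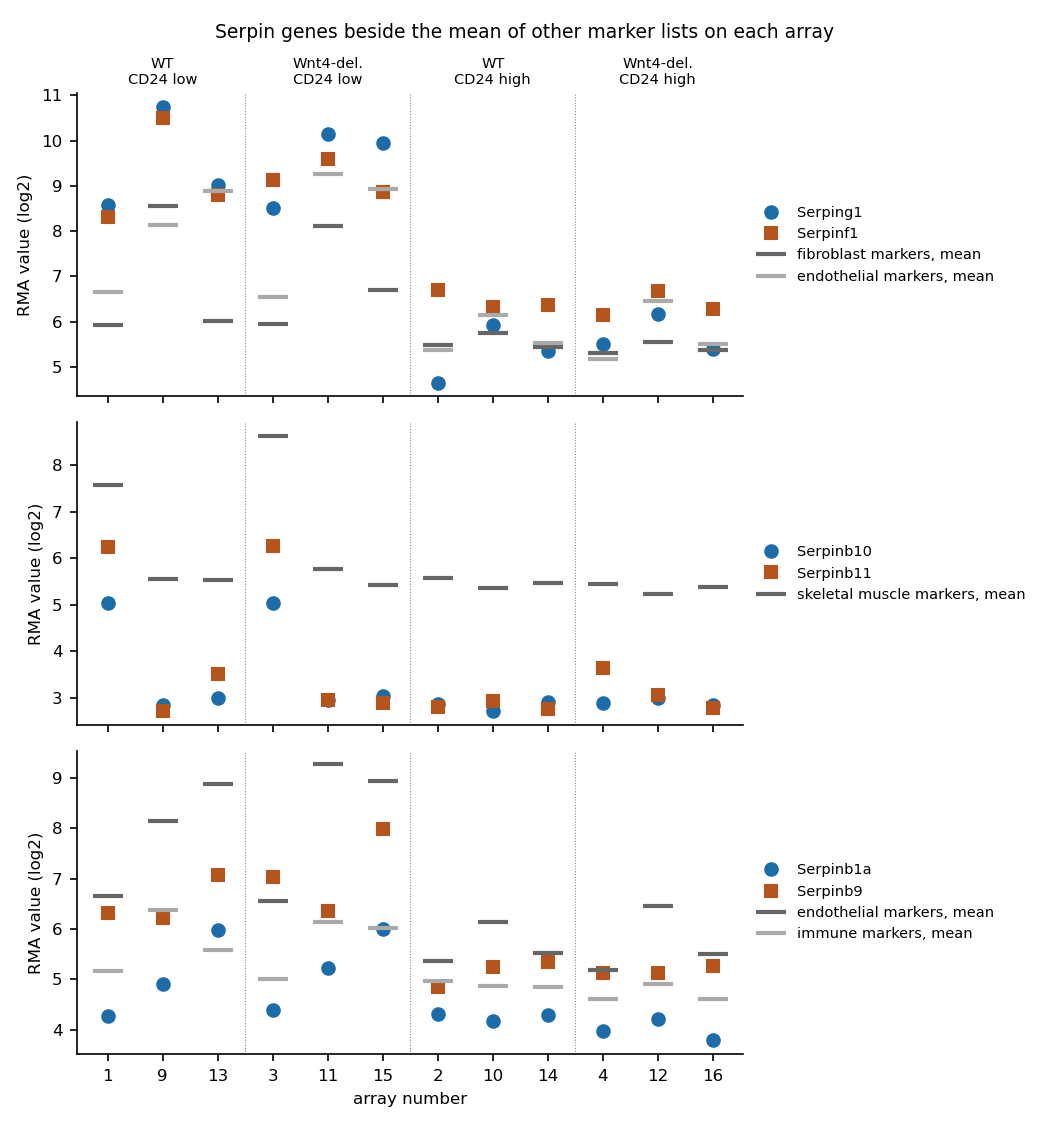
Log2 RMA values on each of the 12 arrays, ordered by group, of Serping1 and Serpinf1, Serpinb10 and Serpinb11, and Serpinb1a and Serpinb9 (points), with the mean of marker lists of other cell types (dashes); heights are to be read along one symbol and not between symbols. Serpinb10 and Serpinb11 stand up in arrays 1 and 3 with the skeletal muscle mean, and Serping1 and Serpinf1 are highest in arrays 9 and 11 with the fibroblast mean. The immune mean and the pericyte mean, which is not drawn, were also highest in arrays 9 and 11.

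The comparison of Wnt4-deleted with WT cells asks whether loss of Wnt4 in the epithelium changed these inhibitors. No serpin gene passed in either fraction, where 0.00502% of all genes, a single gene, passed in the CD24 low and likewise 0.00502% in the CD24 high cells. At an unadjusted p under 0.05, 2 members differed in the CD24 low cells, or 4.26% against 3.06% of all genes, and none in the CD24 high cells against 1.99% of all genes. Groups did not overlap for 3 members in the CD24 low cells (6.38% against 6.77% of all genes) and for 4 in the CD24 high cells (8.51% against 7% of all genes). Each of these shares lay near its background. The 4 in the CD24 high cells were Serpina3n, Serpina9, Serpina12 and Serpinb1b, all lower.

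The members with the smallest p in the CD24 low cells were dim and moved little. Serpina11, a clade A gene of unsettled function, read 4.63, 4.38 and 4.40 in WT and 4.19, 4.21 and 4.18 in Wnt4-deleted cells, a difference of -0.28 (SE 0.11, 95% interval -0.52 to -0.03, adjusted p = 1). Serpinb9e, from the rodent-specific expansion of the Serpinb9 genes, read 2.85, 2.88 and 2.90 in WT and 3.23, 3.05 and 3.04 in Wnt4-deleted cells, a difference of 0.23 (SE 0.10, 95% interval 0.01 to 0.45, adjusted p = 1). Serpina5 read 3.65, 3.61 and 3.53 against 3.70, 3.84 and 3.81, a difference of 0.19 (SE 0.10, adjusted p = 1). For all of them the genotypes were apart on these arrays, at values of 2.85 to 4.63 on the log2 scale.

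In the CD24 high cells the smallest p belonged to Serpina1f, Serpinb1b and Serpinb9d, again dim. Serpina1f read 4.77, 4.45 and 4.51 in WT and 4.22, 4.48 and 4.25 in Wnt4-deleted cells, with a difference of -0.26 (SE 0.14, adjusted p = 1). Serpinb1b read 3.42, 3.26 and 3.40 against 2.96, 3.23 and 2.99, with a difference of -0.30 (SE 0.18, adjusted p = 1). Serpinb9d read 2.84, 2.88 and 2.65 against 2.60, 2.54 and 2.65, with a difference of -0.20 (SE 0.12, adjusted p = 1). Serpinb1b alone of the 3 had genotypes apart.

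Of the members that were not dim, Serpinb6b had the largest difference in the CD24 low cells, 0.64 (SE 0.36, 95% interval -0.16 to 1.43, adjusted p = 1), and it was higher in the Wnt4-deleted array of each of the 3 sets, by 0.53 to 0.75. Its neighbour Serpinb9 differed by 0.59 (SE 0.35, 95% interval -0.18 to 1.37, adjusted p = 1) and was higher in each set too, by 0.14 to 0.92. Neither passed, and the array values of the genotypes overlapped for both. Serpina3n had the largest difference in the CD24 high cells, -0.47 (SE 0.58, 95% interval -1.74 to 0.79, adjusted p = 1), where its genotypes were apart at 5.04 to 5.28 against 4.38 to 4.93. Serping1, Serpinf1, Serpinh1 and Serpinb5 differed by 0.09, -0.01, -0.24 and 0.22 in the CD24 low and by 0.38, -0.10, -0.22 and 0.01 in the CD24 high cells.

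Of the 47 intervals, 38 in the CD24 low and 40 in the CD24 high cells lay within a 2-fold difference in either direction. Most of these belonged to dim members. Of the 8 members that were not dim, only Serpinb5 and Serpinf1 had such an interval in the CD24 low cells. In the CD24 high cells only Serpinb5, Serpinb6a, Serpinb9 and Serpinh1 had one. The genes with wider intervals were not shown to be unchanged. Over all members, 27 were nominally higher and 20 lower in Wnt4-deleted CD24 low cells, and 12 higher and 35 lower in Wnt4-deleted CD24 high cells. The same split was not counted over all genes and 39 of the 47 members were dim, so that no shift of the family was read from it. The medians were 0.01 and -0.09 against -0.02 and -0.03 over all genes.

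**Figure D4:**
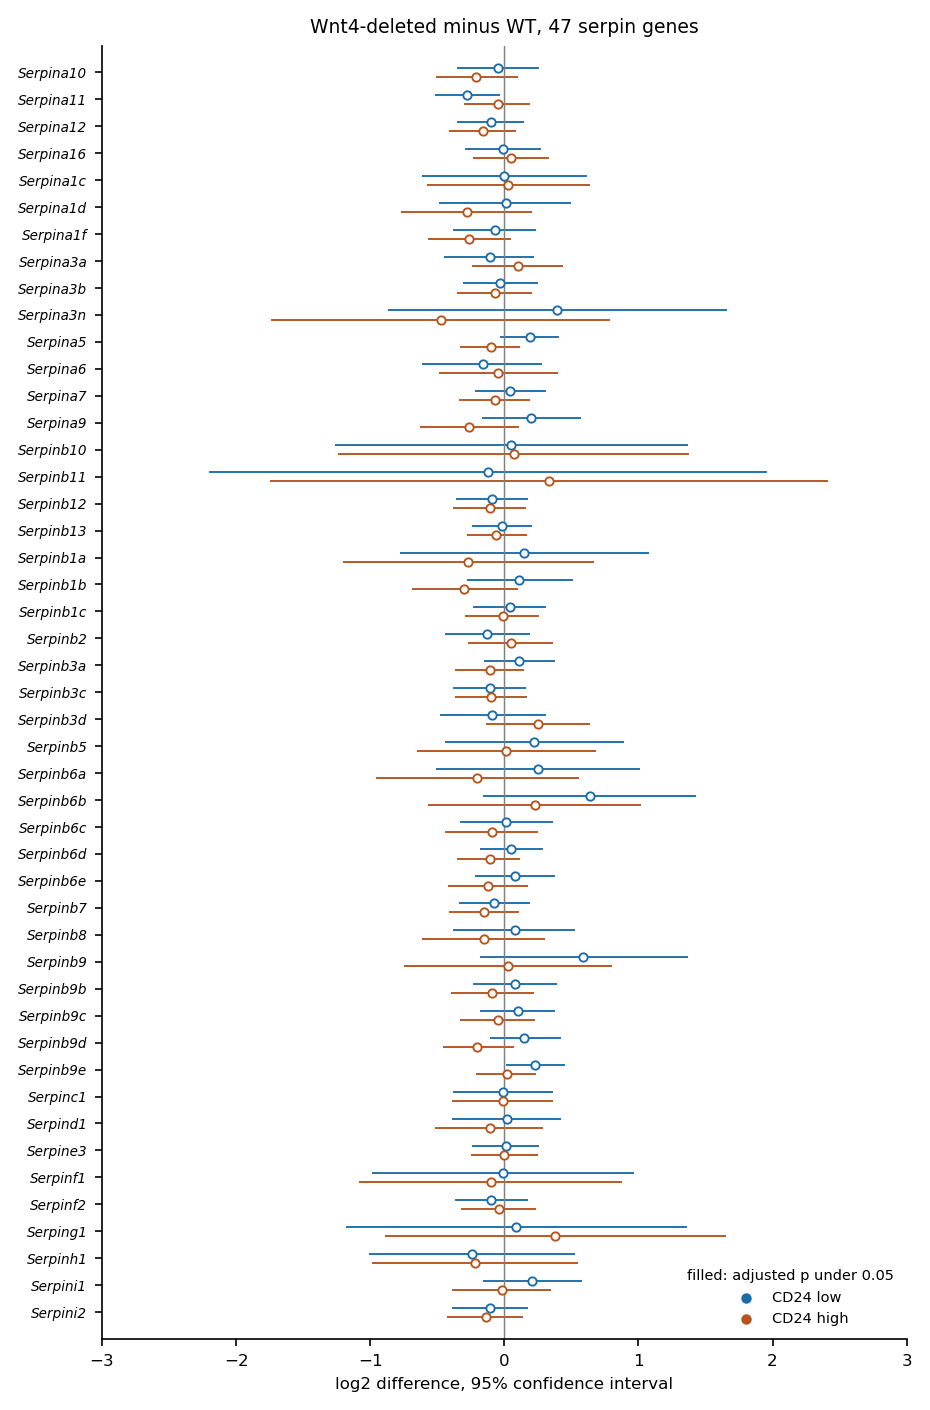
Log2 difference between Wnt4-deleted and WT cells for each of the 47 serpin genes in the CD24 low (blue) and CD24 high (brown) fraction, with 95% confidence intervals from limma; a filled point would have passed an adjusted p of 0.05. No point is filled, and the widest intervals belong to Serpinb11, Serpinb10, Serpina3n and Serping1.

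Whether the effect of Wnt4 loss differed between the fractions was tested as its own term. No serpin passed, as no gene of the 19938 did (0%), and at an unadjusted p under 0.05 there was no serpin against 1.37% of all genes. The smallest p were those of Serpinb9d, with a difference of effects of 0.35 (SE 0.17, adjusted p = 1), Serpina5, with 0.29 (SE 0.14, adjusted p = 1), and Serpina9, a B-cell serpin, with 0.46 (SE 0.24, adjusted p = 1). Serpina9 read 3.96, 3.5 and 4.0 in WT and 4.19, 3.74 and 4.14 in Wnt4-deleted CD24 low cells. In CD24 high cells it read 4.02, 3.78 and 3.68 in WT and 3.48, 3.64 and 3.59 in Wnt4-deleted mice, where the genotypes were apart. Serpina3n had the largest difference of effects, 0.86 (SE 0.81, 95% interval -0.93 to 2.66, adjusted p = 1).

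The proteases, receptors and other inhibitors that serpins work beside were read from lists of genes. Their counts are to be read beside the 16.1% of all genes that passed in WT, 8.21% on the lower side. In Wnt4-deleted cells these shares were 16.4% and 8.22%. No set test was made, and nothing was read from a count alone. In the plasminogen activation list, 2 of 11 genes were higher and 2 lower in WT CD24 high cells, and 3 were higher and 2 lower in Wnt4-deleted ones. Plat, the tissue plasminogen activator that Serpini1 inhibits, read 9.01, 9.42 and 9.49 in WT CD24 low and 6.63, 6.73 and 7.02 in WT CD24 high arrays, a difference of -2.52 (SE 0.30, limma adjusted p = 0.000168), in the same direction as Serpini1. The urokinase receptor Plaur was higher in WT CD24 high cells by 1.34 and the plasminogen-binding annexin Anxa2 by 1.22. Lrp1, which takes up serpin-protease complexes, was lower by 3.24 on the log2 scale (a difference of -3.24, SE 0.30, limma adjusted p = 2.62e-05). Of 6 measured clearance receptors, Lrp1 was the only one called in WT. In Wnt4-deleted CD24 high cells 1 of the 6 was higher and 1 lower.

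The complement and immune protease list gave 1 call of 15 in each genotype. This was C1s1, which encodes C1s, a target of Serping1: 8.55, 8.78 and 9.75 in WT CD24 low and 3.84, 5.05 and 3.83 in WT CD24 high arrays. Both the protease gene and its inhibitor passed with lower values in the CD24 high fraction, C1s1 with a difference of -4.78 (SE 0.49, limma adjusted p = 5.53e-05). C1ra, for the other C1 protease, differed by -0.87 without passing (adjusted p = 0.0702). No granzyme, elastase or cathepsin G gene, whose products some clade B members and Serpina3n inhibit, passed in either genotype.

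In the coagulation list, 2 of 15 genes were higher and 5 lower in WT, and 2 higher and 6 lower in Wnt4-deleted CD24 high cells. Protein S, Pros1, differed by -3.59, thrombomodulin, Thbd, by -2.40 and the protein C receptor, Procr, by -2.39, while tissue factor, F3, was higher by 1.96. Thbd and Procr are also known from endothelial cells, whose markers were higher in the CD24 low arrays. Of 15 membrane and kallikrein proteases, 5 were higher and 2 lower in each genotype. Tmprss2, a membrane-anchored serine protease, was higher by 2.83 in WT CD24 high cells and Prss22 by 1.91, and the secreted proteases Prss23 and Htra1 differed by -2.67 and -1.84. Of 11 cathepsins, 1 was higher and 2 lower in WT, Ctsh by 1.85, Ctsl by -0.97 and Ctsf by -0.55, and Ctsh alone passed in Wnt4-deleted cells.

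Other protease inhibitors, of folds unlike the serpins and not all directed at serine proteases, were called in both directions. Of 18, the CD24 high fraction had 3 higher and 4 lower in WT and 4 higher and 5 lower in Wnt4-deleted mice. Slpi, the secretory leukocyte protease inhibitor, read 11.90, 11.81 and 11.69 in WT CD24 low and 7.60, 8.22 and 8.39 in WT CD24 high arrays, a difference of -3.73 (SE 0.25, limma adjusted p = 2.32e-06). Of the whey acidic protein family, Wfdc18 was higher in the CD24 high fraction by 2.77 and Wfdc2 by 2.36, and so was Spint1, the Kunitz inhibitor of matriptase and hepsin, by 1.77. The serpins that passed in the same comparison were all lower. None of the listed proteases, receptors and inhibitors passed in a genotype comparison.

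**Figure D5:**
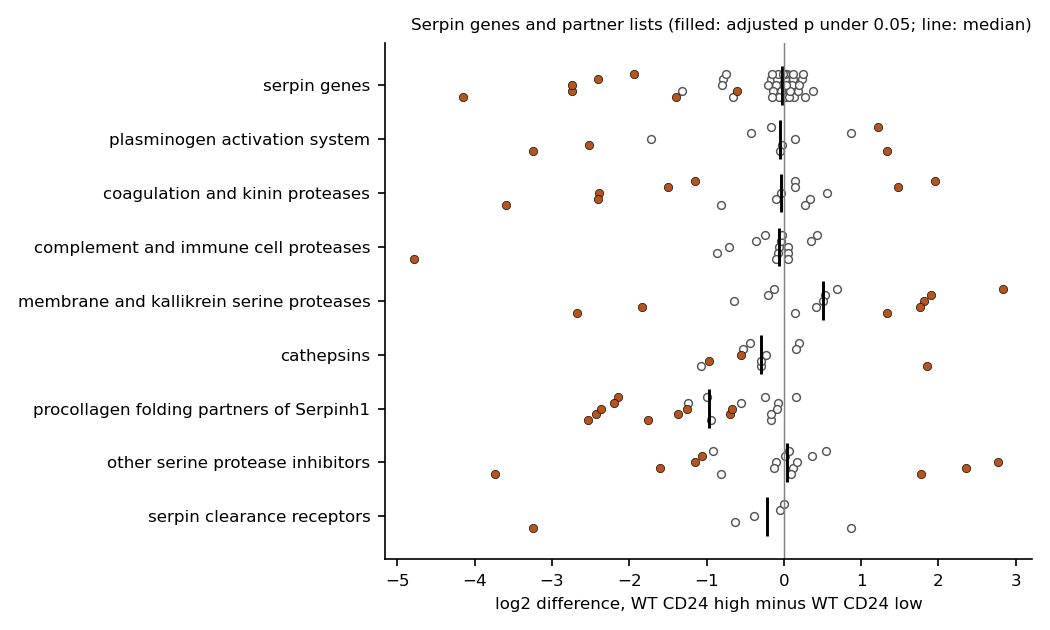
Log2 difference between WT CD24 high and WT CD24 low cells for the 47 serpin genes and the members of 8 partner lists, 1 point per gene, filled where the adjusted p was under 0.05, with the median of each list as a line. Filled serpin points lie on the lower side only, whereas membrane proteases and other inhibitors have filled points on both sides and procollagen folding partners on the lower side only.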

How the data were processed

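Total RNA of the sorted cells was amplified, labelled with biotin and hybridised to Affymetrix mouse gene arrays, 1 array per sample. The authors deposited 1 table of log2 values for 35556 probesets and 12 arrays, which the submitters' processing notes credit to RMA in Affymetrix Expression Console 1.1.2800; RMA corrects background, makes the distributions of the arrays alike and summarises probes, so that a shift shared by most genes is removed. The array methods of the study stand in a supplement not used here. Values ran from 1.62 to 13.8, array medians from 5.64 to 5.82, and no pair of arrays was identical.

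The platform annotation named 21789 probesets by 1 symbol, 1621 by several and 12146 by none; the first kind was kept, and for 999 genes with several probesets the brightest on average stood for the gene, which left 19938 genes. Groups came from the array titles and genotype labels. All 12 arrays entered 1 linear model with a mean for each group, fitted with limma 3.58.1 in R 4.3.3 with 8 residual degrees of freedom, eBayes, two-sided tests and Benjamini-Hochberg adjustment over all genes within each comparison, at a threshold of 0.05. The fit was tested on simulated data. Partner lists were counted with the same fit and no set test was made.

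Array values were given for members passing between fractions, for the 3 smallest p in each genotype comparison and in the difference of effects, for Serpinb5, Serpinh1, Serpinf1, Serping1, Serpina3n and Serpinb1a whatever their values, and, chosen after their values were seen, for Serpinb10 and Serpinb11. Of partner lists, up to 4 called genes with the largest differences were named, with C1ra and Col1a1 added after their values were seen. The members and lists were chosen with earlier results of these data known. Alternatives were array medians subtracted, a second quantile normalisation, a filter at the 40th percentile of mean level, averaged probesets, a robust eBayes prior that follows intensity, weighted arrays, only the groups compared, the array number sets as a fixed or random block or left out in turn, single arrays left out, and other thresholds; leaving out arrays 1 and 3 or arrays 9 and 11 was added after seeing the data.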

Additional observations from a re-analysis of the deposited data

How the results depend on the processing

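The count of serpin genes passing between the fractions in WT was 7 and fell to 4 without arrays 9 to 12 and to 4 at an adjusted p under 0.01; in Wnt4-deleted mice it was 8 and became 4 without arrays 13 to 16, where fewer arrays were fitted. Leaving out single arrays gave 5 to 7 in WT and 7 to 10 in Wnt4-deleted mice, and the other alternatives 4 to 8 and 4 to 10. No member passed in the genotype comparisons or the difference of effects under any alternative run. Serpinb6b and Serpinf1 passed in both genotypes under all 26 alternatives; Serping1 lost its Wnt4-deleted call without arrays 13 to 16 (adjusted p = 0.0589), and Serpinh1 lost its WT call there (0.0733) and its Wnt4-deleted call there (0.0807) and without arrays 9 to 12 (0.0561). Serpini1 lost its Wnt4-deleted call without arrays 9 to 12 (0.0706) or 13 to 16 (0.0847) and was removed by the filter on low values. No difference of a called member turned its direction. Leaving out arrays could not turn it, because the fractions of each called member did not overlap. Each member had 1 probeset, so averaging probesets could not change its difference either. Other scalings moved the median of all genes by at most 0.072. The difference of effects cannot be fitted with only 2 groups and was not run so. The sets of array numbers were 1 to 4, 9 to 12 and 13 to 16. Every title has a number of its own, so they pair arrays by order in the titles and not by a label. With the sets as a fixed block 7 members passed in WT and 9 in Wnt4-deleted mice. As a random block (consensus correlation over all genes 0.0501) 7 and 8 passed, and none passed in the genotype comparisons. Deviations of arrays from their group means, over all genes, correlated from -0.143 to 0.696 in the 18 pairs of arrays within a set. Some arrays of a set thus varied together. The main fit took all arrays as independent, also for its genotype intervals and p-values.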
